A study of Mus musculus with 41 samples.

Results

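Imprinted genes are transcribed from only 1 parental copy in many tissues. A set of 33 of them was followed here through RNA-seq, iSLAM-seq and CUT&Tag of mouse spermatogonial cells with altered RHOX10, an X-linked homeobox transcription factor. The members were listed by name from genes whose imprinting in the mouse is well known, with earlier results of these data known, and no measured value enters the rule. Each was found by its Ensembl gene identifier, paired with symbols through GENCODE M21, among the 55536 genes of the count tables, and all 33 were present. By the parental copy they are known for, 12 are maternally expressed and 20 paternally expressed, and Gnas depends on the isoform.

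The question behind the series, per its title, is how RHOX10 acts in the establishment of spermatogonial stem cells. All cells came from mice of the C57BL/6 strain. RNA-seq used testis cells sorted by flow cytometry for an OCT4-eGFP transgene, a green reporter driven by the Oct4 (Pou5f1) gene, which marks undifferentiated germ cells. The labels name 4 wild-type libraries and 4 Rhox10-null ones, each pooled from 3 animals, and the age is not given in the sources used here. iSLAM-seq and CUT&Tag used germline stem cells, cultured cells grown out from newborn testes. In all of these cultures, controls included, endogenous Rhox10 was knocked down by an shRNA lentivirus and the infected cells were sorted by GFP. For iSLAM-seq a second lentivirus carried either Rhox10-ERT2-mCherry, a fusion that 4-hydroxytamoxifen switches on, or the ERT2-mCherry empty vector. Both vectors were sampled at 0, 0.5, 1, 2, 4 and 8 h with 2 libraries each, 24 libraries in all, prepared with a 3′ end kit from polyadenylated RNA. For CUT&Tag the knockdown cells carried HA-tagged Rhox10, and the deposited peaks describe 3 such libraries. The labels do not say whether the cultures trace to 1 or several derivations, so the spread between libraries may be partly technical.

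At an imprinted locus, a differentially methylated region carries DNA methylation on 1 parental copy, and that mark decides which copy is transcribed. Long noncoding RNAs such as Kcnq1ot1 and Airn, or insulators bound by CTCF, pass the silencing on to neighbouring genes. The zinc finger proteins ZFP57 and ZFP445 keep the mark through early development, and ZFP57 recognises the hexamer TGCCGC when it is methylated. In the male germ line the marks are first erased and then reset to a paternal pattern, with methylation placed at the H19, Dlk1-Meg3, Rasgrf1 and Zdbf2 loci. Counts per gene do not show from which parental copy a transcript came.

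The RNA-seq libraries held 6602089 to 8278887 counts, and 1 gene, Gm42418, took 51.0% to 59.4% of them. The iSLAM-seq libraries held 9419615 to 12645845 counts. Rhox10 itself, the labelled target, had 3 to 10 counts in the wild-type RNA-seq libraries and 4 to 11 in those labelled Rhox10-null, so its counts do not verify the genotype, and these libraries are called labelled null below. In iSLAM-seq it stood at 34.0 to 46.7 CPM (counts scaled to a common library size) with Rhox10-ERT2 and at 0.202 to 2.42 CPM with the empty vector. The 2 empty-vector libraries of 0.5 h stood apart from each other, with a chi-square statistic per degree of freedom of 27.1, against at most 4.59 for the other iSLAM-seq pairs. All CPM values are scaled by TMM, a composition factor from edgeR. Levels of genes are compared with each other only per kilobase of exon and only in RNA-seq.

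Of the 33 imprinted genes, 13 had a RHOX10 peak that the authors' deposited table placed within 3 kb of a start site of that gene, 39.4% against 7.67% of all named genes in the count tables. Most genes of the tables are not expressed in these cells. Among the genes that passed the expression filter in RNA-seq, 12 of 29 members (41.4%) had such a peak against 27.3% of all, and in iSLAM-seq 13 of 31 (41.9%) against 19.8%. No test of enrichment was made. The 13 genes were Kcnq1ot1, Phlda2, Plagl1, Grb10, Mest, Peg10, Gnas, Impact, H13, Mcts2, Inpp5f, Zdbf2 and Rasgrf1. Gnas and Zdbf2 had 2 such peaks each.

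Several of these peaks lay at promoters inside a gene or at the start of its imprinted transcript, and not at the start of the longest gene model. The peak of Kcnq1ot1, the antisense RNA of the Kcnq1 domain, lay 152 bases past its start and within the Kcnq1 gene on the other strand. Distances upstream are written as negative. The peak of Mcts2, a retrogene within an intron of H13, lay at -152 bases. The peak of Inpp5f, an inositol phosphatase gene, lay at -665 bases from the start of a short transcript, far inside the gene. A Zdbf2 peak lay at -176 bases from the start of a long Zdbf2 transcript and at -73082 bases from the GENCODE gene start. The Peg10 peak lay 1872 bases past the start of Peg10, a gene derived from a retrotransposon, and had the highest score of the member peaks, 523, or the 94.3 percentile of all peaks. The Impact peak followed at 435, and the lowest of the 13 genes' peaks was that of Gnas at its upstream exon, at 22.3. These scores are the authors' own and describe the peaks only. Beyond 3 kb, peaks were annotated to H19 at -33333 bases, to Snrpn at -352300 bases and to Inpp5f at -19790 bases. A peak in the first intron of Meg3 was annotated to Mir1906-1.

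**Figure D1:**
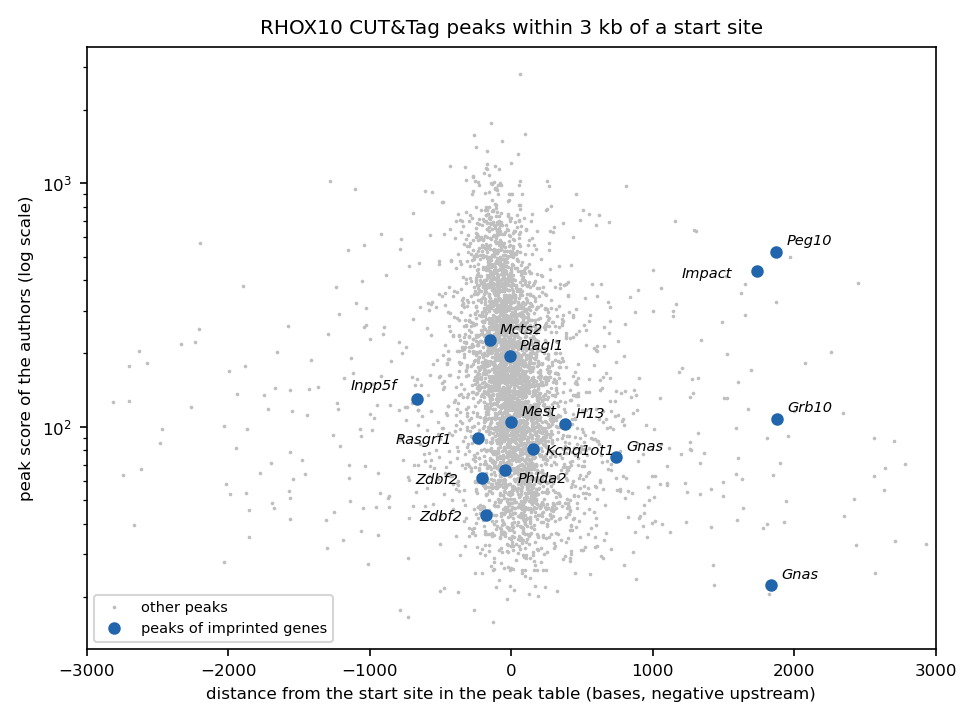
Score of each RHOX10 CUT&Tag peak (y axis, log scale, the authors' units) against its distance from the annotated start site (x axis, bases) for all peaks within 3 kb, with the 15 peaks of imprinted genes in blue and all others in grey. Peg10 and Impact, at 523 and 435, lie highest among the imprinted genes, 1872 and 1735 bases past their start sites.

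The letters under these peaks were searched on both strands for TGCCGC, the hexamer that ZFP57 recognises. In all, 19 peaks were annotated to a member at any distance or lay in one, the Meg3 intron included. In their central 300 bases the hexamer occurred at least once in 9 of the 19 (47.4%), against 24% of the 5143 peaks on assembled chromosomes and 11.6% of 32851 RefSeq promoter windows of the same length. At least 2 copies occurred in 5 of 19 (26.3%), against 4.12% of peaks and 1.53% of promoters. Among 41 promoter windows of the members themselves, 26.8% held the hexamer and 7.32% at least 2 copies. The 5 were the upstream Gnas peak and the peaks of Grb10, Mcts2, Mest and the distal Zdbf2 promoter. The core homeobox motif TAAT occurred in 26.3% of member peaks, 26.8% of all peaks and 58.0% of promoters, and TAATTG, which contains it, in 0 of the 19 and 2.39% of all peaks. The windows were rich in CpG, with a median of 24 per member peak, 25 per peak overall and 7 per promoter. A match is only a string of letters, and the methylation of these sites was not measured.

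Below are peak sequences read from the GRCm38 genome, 5′ to 3′ on the strand of the named gene, with TGCCGC or its reverse complement in capitals. The first 3 hold 3 copies each. They are Grb10 at chr11:12025945-12026244 on the minus strand, Mcts2 at chr2:152686847-152687034 on the plus strand, cut at the annotated start of its transcript, and the distal Zdbf2 promoter at chr1:63200033-63200332 on the plus strand.
Grb10: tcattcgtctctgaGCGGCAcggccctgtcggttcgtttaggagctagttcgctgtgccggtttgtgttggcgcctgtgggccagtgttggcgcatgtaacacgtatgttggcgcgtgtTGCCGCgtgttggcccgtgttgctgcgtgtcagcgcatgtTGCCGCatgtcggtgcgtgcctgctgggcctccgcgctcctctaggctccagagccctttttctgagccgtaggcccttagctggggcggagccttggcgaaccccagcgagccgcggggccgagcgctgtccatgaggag
Mcts2: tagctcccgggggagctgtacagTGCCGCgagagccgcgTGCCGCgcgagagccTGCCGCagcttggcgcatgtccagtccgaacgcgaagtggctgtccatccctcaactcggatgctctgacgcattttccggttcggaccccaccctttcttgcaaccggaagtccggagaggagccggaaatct
Zdbf2: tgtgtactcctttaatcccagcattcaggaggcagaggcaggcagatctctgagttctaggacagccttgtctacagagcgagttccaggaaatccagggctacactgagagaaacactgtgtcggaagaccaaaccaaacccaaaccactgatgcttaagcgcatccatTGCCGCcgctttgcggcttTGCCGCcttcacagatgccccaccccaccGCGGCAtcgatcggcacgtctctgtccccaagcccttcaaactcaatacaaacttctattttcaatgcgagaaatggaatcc
For contrast, the peaks of Kcnq1ot1 at chr7:143296246-143296545 on the minus strand and of Peg10 at chr6:4749029-4749328 on the plus strand hold 0 copies.
Kcnq1ot1: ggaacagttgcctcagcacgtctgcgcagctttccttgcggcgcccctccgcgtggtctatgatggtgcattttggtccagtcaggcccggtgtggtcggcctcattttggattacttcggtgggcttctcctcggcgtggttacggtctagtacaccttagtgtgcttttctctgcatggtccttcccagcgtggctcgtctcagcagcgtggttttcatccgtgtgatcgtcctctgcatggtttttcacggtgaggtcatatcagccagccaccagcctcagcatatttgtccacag
Peg10: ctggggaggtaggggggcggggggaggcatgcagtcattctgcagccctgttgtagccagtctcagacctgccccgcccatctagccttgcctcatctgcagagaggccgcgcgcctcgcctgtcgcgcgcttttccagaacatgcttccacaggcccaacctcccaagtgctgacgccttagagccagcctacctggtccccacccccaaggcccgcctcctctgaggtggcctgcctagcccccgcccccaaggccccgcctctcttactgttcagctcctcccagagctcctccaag

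Imprinted genes were mostly higher in the labelled-null cells. Of the 33, 29 passed the filter on low counts, and edgeR's quasi-likelihood test with adjustment over all 13538 genes called 20 of them at an adjusted p under 0.05. Of these, 19 were higher and 1 was lower, while 18.6% of all genes tested were called higher, 18.9% lower and 37.5% in either direction. The median log2 fold change of the 29 was 0.41, against 0.0031 over all genes tested. All 9 tested maternally expressed genes rose, as did Gnas and all 6 long noncoding RNAs. Of 19 paternally expressed genes 9 rose and 1 fell. In 15 members all 4 labelled-null libraries lay above all 4 wild-type libraries and in 1 below them, where 15.8% and 16.4% of all genes did. With library totals as the scale, the median of all genes moved by 0.35 and 23 members were called, all higher. Of all 13538 genes 7229 were then called higher. With scaling to 16 germline genes the median moved by 0.87 and all 29 members were called higher, as were 12114 of the 13538 genes. The rises below are thus relative to the median gene. The summed level of all 33 members was 717.9 to 742 CPM in wild-type and 1032 to 1068 CPM in labelled-null libraries.

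RNA of cell type markers differed between the genotypes as well. Of 14 germ cell markers 13 fell, and their summed level was 328.7 to 337 CPM in wild-type and 152 to 162 CPM in labelled-null libraries. Markers of stromal cells rose in 7 of 7 tested, from a sum of 436 to 462 CPM to one of 696 to 735 CPM. Erythroid markers rose in 6 of 6 tested, from 1.36 to 4.07 CPM to 78.9 to 88.1 CPM, with Slc4a1 at 0 in all wild-type libraries. Of 8 Sertoli cell markers 2 rose and 1 fell, with sums of 423 to 451 CPM in wild-type and 484 to 501 CPM in labelled-null libraries. Of Leydig cell markers 4 of 5 tested rose, from 34.2 to 36.0 CPM to 46.3 to 56.1 CPM. Endothelial markers rose in 4 of 5, from 26.5 to 31.9 CPM to 39.0 to 42.5 CPM. Macrophage markers rose in 3 of 6, from 21.8 to 23.4 CPM to 26.4 to 30.3 CPM. RNA of somatic cell markers was thus present in the wild-type libraries as well. Many imprinted genes are also expressed in stromal cells, and the part of these cells in the members' rise was not tested. In such bulk samples, fewer cells of a type and less RNA per cell cannot be told apart.

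**Figure D2:**
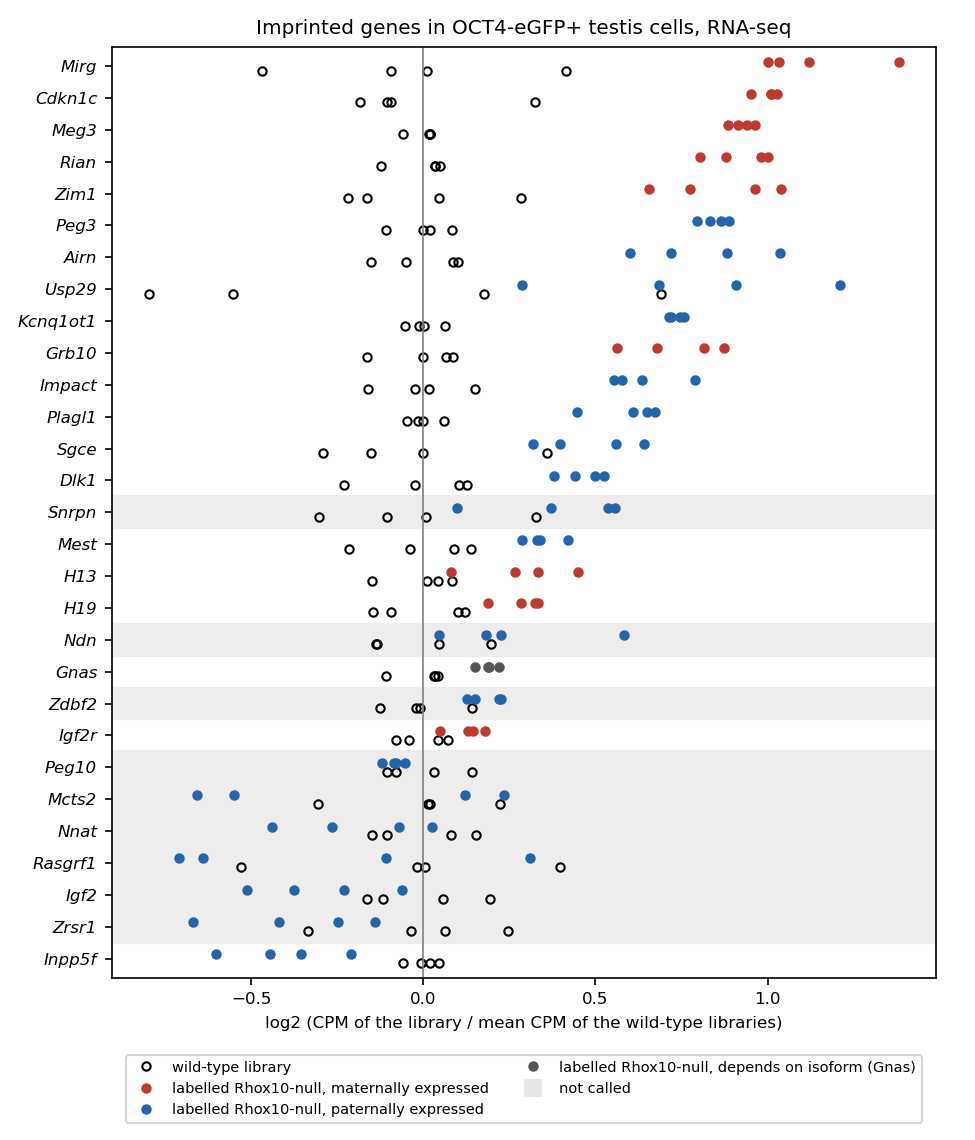
RNA-seq level of the 29 tested imprinted genes in each library, as log2 of its CPM over the wild-type mean (x axis), with 1 row per gene ordered by log2 fold change. Open circles are the 4 wild-type libraries and filled circles the 4 labelled-null libraries. Grey rows were not called, and from Mirg at 1.14 to Igf2r at 0.13 called genes lie to the right, with Inpp5f alone called to the left.

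In the Dlk1-Meg3 domain all 4 members rose. Meg3, a maternally expressed noncoding RNA at the head of a long transcription unit, stood at 58.1, 55.1, 58.1 and 58.2 CPM in the wild-type libraries and at 106, 110.1, 108 and 112 CPM in the labelled-null ones. Its log2 fold change was 0.92 (SE 0.05, adjusted p = 3.48e-19) by edgeR. The 2 groups did not overlap, and the wild-type libraries lay within 4 CPM of each other.

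Rian, which hosts small nucleolar RNAs downstream of Meg3, stood at 44.1, 44.0, 39.5 and 44.5 CPM in wild-type and 86.2, 84.9, 79.2 and 75.1 CPM in labelled-null libraries, a log2 fold change of 0.92 (SE 0.06, adjusted p = 3.98e-17) by edgeR. Mirg, which hosts a cluster of microRNAs further downstream, stood at 3.31, 4.29, 6.10 and 4.61 CPM and 9.17, 11.9, 9.37 and 9.96 CPM. Its log2 fold change of 1.14 (SE 0.15, adjusted p = 5.89e-08) by edgeR was the largest of the members. Neither gene's groups overlapped, and the 3 noncoding RNAs rose by similar amounts. Dlk1, the paternally expressed gene of the domain and a ligand related to those of Notch, rose less, by 0.46 (SE 0.07), from 27.5 to 35.3 CPM to 42.1 to 46.5 CPM.

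In the Kcnq1 domain both members that could be tested rose. Kcnq1ot1, the paternally expressed antisense RNA that silences its neighbours, stood at 96.1, 93.4, 101 and 97.1 CPM in wild-type and 164, 159.6, 163 and 159 CPM in labelled-null libraries. The log2 fold change was 0.73 (SE 0.05, adjusted p = 5.1e-17) by edgeR. Its groups were far apart, each within 8 CPM. Kcnq1, the potassium channel gene on the other strand, had 0 to 8 counts in any RNA-seq library against at least 598 for Kcnq1ot1. Whether the counting used strand is not given in the sources used here.

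Cdkn1c, an inhibitor of cyclin-dependent kinases that restrains growth, stood at 3.76, 3.53, 3.73 and 5.02 CPM in wild-type and 7.75, 8.08, 8.17 and 8.07 CPM in labelled-null libraries. It rose by 0.98 (SE 0.15, adjusted p = 1.54e-06) on the log2 scale by edgeR, and the groups did not overlap although wild-type replicate 4 lay above the other 3. The rise of Cdkn1c went with that of the RNA known to silence it, and the counts do not separate cells or copies that express either. The other 3 genes of the domain were too low to test. Phlda2, which limits placental growth, stood at 0.407 to 0.614 CPM in wild-type and 0.404 to 0.927 CPM in labelled-null libraries. Slc22a18, a transporter gene, stood at 0 to 0.339 and 0.360 to 0.942 CPM, and Kcnq1 at 0 to 0.614 and 0.397 to 1.08 CPM.

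At the Igf2r locus, Airn, the paternally expressed antisense RNA that silences Igf2r, stood at 3.46, 3.83, 3.22 and 3.80 CPM in wild-type and 5.90, 5.43, 7.33 and 6.59 CPM in labelled-null libraries. It rose by 0.81 (SE 0.17, adjusted p = 0.000162) by edgeR without overlap of the groups. Igf2r, the maternally expressed receptor that clears IGF2 from the cell surface, stood at 61.7, 66.7, 65.4 and 60.1 CPM and 70.1, 69.5, 71.9 and 65.7 CPM. Its log2 fold change of 0.13 (SE 0.05, adjusted p = 0.0493) by edgeR was small, the groups overlapped, and the call was lost under DESeq2, with another scaling and without any of several single libraries.

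In the Peg3 domain all 3 members rose. Peg3, a paternally expressed zinc finger gene, stood at 62.7, 65.7, 61.9 and 57.4 CPM in wild-type and 113, 115, 107 and 110.2 CPM in labelled-null libraries, and the change was 0.85 (SE 0.05, adjusted p = 1.49e-17) by edgeR. Zim1, a maternally expressed zinc finger gene next to it, stood at 12.5, 10.6, 9.15 and 8.82 CPM and 21.1, 19.998, 17.5 and 16.1 CPM, and the change was 0.87 (SE 0.11, adjusted p = 1.47e-08) by edgeR. The groups of both genes were separate.

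Usp29, a deubiquitinase gene read from the same promoter region as Peg3 in the opposite direction, stood at 1.20, 1.99, 1.02 and 2.85 CPM in wild-type and 2.84, 3.31, 4.09 and 2.15 CPM in labelled-null libraries. Its log2 fold change was 0.77 (SE 0.27, adjusted p = 0.0210) by edgeR, but the groups overlapped, wild-type replicate 4 lay above 2 of the labelled-null libraries, and DESeq2 did not call it.

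Outside these domains, Plagl1, a paternally expressed zinc finger transcription factor, stood at 49.0, 47.4, 48.5 and 51.1 CPM in wild-type and 76.9, 74.7, 78.1 and 66.7 CPM in labelled-null libraries, a change of 0.60 (SE 0.06, adjusted p = 1.26e-11) by edgeR. Grb10, an adaptor that dampens insulin receptor signalling, stood at 27.5, 23.2, 27.1 and 25.9 CPM and 41.5, 47.5, 38.3 and 45.6 CPM, a change of 0.73 (SE 0.07, adjusted p = 2.72e-11) by edgeR. Impact, a regulator of translation under amino acid stress, stood at 8.42, 7.67, 7.46 and 6.78 CPM and 11.1, 13.1, 11.8 and 11.3 CPM, a change of 0.64 (SE 0.12, adjusted p = 3.19e-05) by edgeR. None of these 3 had overlapping groups, and each had a RHOX10 peak within 3 kb.

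Smaller rises were called for 5 further genes. Sgce, epsilon-sarcoglycan, rose by 0.50 (SE 0.14) and its groups overlapped. Mest, a hydrolase gene, rose by 0.35 (SE 0.08), while Copg2, which overlaps it on the other strand over 23.1% of its exon bases, fell by 0.38. H13, a signal peptide peptidase, rose by 0.28 (SE 0.09), with overlapping groups and no call under DESeq2. H19, the maternally expressed noncoding RNA next to Igf2, rose by 0.27 (SE 0.06), from 33.2 to 40.023 CPM to 41.9 to 46.3 CPM. Gnas, the stimulatory G protein subunit gene, rose by 0.19 (SE 0.05).

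Inpp5f was the only member that fell. It stood at 12.7 to 13.7 CPM in wild-type and 8.74 to 11.5 CPM in labelled-null libraries, without overlap, and its log2 fold change was -0.39 (SE 0.11, adjusted p = 0.00363) by edgeR. The direction depended on the scaling. Against 16 germline genes, all of which fell with a median log2 fold change of -0.83, Inpp5f became 0.48, and with library totals it was not called.

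The other 9 tested members did not pass the threshold, 3 of them at loci that are methylated in sperm. Igf2, the growth factor gene, had a log2 fold change of -0.28 (SE 0.21), at only 2.91 to 3.73 CPM in wild-type libraries. Zdbf2 had 0.18 (SE 0.08) and Rasgrf1, a Ras exchange factor gene, -0.22 (SE 0.21). Of the 8 members at the sperm-methylated loci, 5 rose, namely H19 and the 4 genes of the Dlk1-Meg3 domain. Peg10, whose promoter region faces that of Sgce, did not pass, at 45.6 to 54.0 CPM in wild-type and 45.1 to 47.2 CPM in labelled-null libraries, a log2 fold change of -0.09 (SE 0.06). In the Snrpn domain, Snrpn had 0.41 (SE 0.28) and Ndn 0.26 (SE 0.14), and Magel2 was too low to test. Nnat had -0.19 (SE 0.14), Zrsr1 -0.37 (SE 0.18) and Mcts2 -0.14 (SE 0.22).

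Per kilobase of exon, H19 had the highest level of the members in wild-type cells, at 15.0 ± 1.40 CPM per kb (SD, n = 4). Peg10 at 7.35 ± 0.581, Gnas at 7.04 ± 0.344 and Igf2r at 6.82 ± 0.334 CPM per kb followed, and neighbours among these 3 overlapped in range. Plagl1 at 6.27 ± 0.202 CPM per kb also overlapped Igf2r, Dlk1 at 5.71 ± 0.627 CPM per kb overlapped Plagl1, and Peg3 at 4.65 ± 0.257 and Mest at 4.59 ± 0.489 CPM per kb overlapped each other. The lowest were Kcnq1 at 0.0662, Usp29 at 0.0977 and Magel2 at 0.123 CPM per kb. Igf2 was low as well, at 0.570 CPM per kb, while its neighbour H19 led the order. In the labelled-null libraries Plagl1, at 9.48 CPM per kb, and Peg3, at 8.35 CPM per kb, stood above Peg10, at 6.93 CPM per kb.

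In cultured germline stem cells the level of imprinted genes differed between the vectors before 4-hydroxytamoxifen was added. In iSLAM-seq 31 members passed the filter, all except Kcnq1 and Igf2. At 0 h edgeR called 10 of them, 8 higher and 2 lower with Rhox10-ERT2, where 6.56% of all 20642 genes were called higher, 4.32% lower and 10.9% in either direction. Phlda2, Igf2r, Airn, Meg3, Plagl1, Peg10, Impact and H13 were higher, and Gnas and Inpp5f were lower. This count was lower without any 1 library of that time, and so was the count over all genes. With 1 library of any time left out in turn, the difference at 0 h was -0.72 to -0.61 for Gnas. It was -0.41 to -0.30 for Inpp5f and 0.50 to 1.06 for Airn. Most of these fits, which also let more genes pass the filter, did not call Gnas. Most did not call Inpp5f, and many did not call Airn.

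Averaged over the 5 induced times, 0.5 to 8 h, 21 of the 31 members were called, 13 higher and 8 lower with Rhox10-ERT2, against 18.7% higher, 18.4% lower and 37.1% in either direction over all genes. Maternally expressed genes were higher in 6 of 11 tested and lower in none. Paternally expressed genes were higher in 7 and lower in 7 of 19 tested. The median log2 difference of the members was 0.30 and that of all genes 0.0015. All contrasts between the vectors draw on the same 24 libraries. Of the 21 members, 20 (95.2%) had the same sign at 0 h, near the 90% of all genes called in that contrast. At all 5 induced times 14 (66.7%) had 1 sign, against 77.6% of all such genes. Markers of other cell types moved here too. Of 14 germ cell markers 8 were lower and 2 higher with Rhox10-ERT2, with sums of 2545 to 3094 CPM in empty-vector and 2407 to 2680 CPM in Rhox10-ERT2 libraries. Of 8 stromal markers 4 were higher and 1 lower, with sums of 806 to 1386 and 906 to 1714 CPM. Of 5 tested endothelial markers 3 were lower, of 5 Sertoli cell markers 2 were higher and 1 lower, of 3 macrophage markers 1 was higher and 1 lower, and of 2 erythroid markers 1 was lower. Their part in the members' differences was not tested.

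Peg10 had the largest averaged difference. In the 12 empty-vector libraries it stood at 14.8 at the lowest, 22.6 at the median and 31.0 at the highest CPM, and in the 12 Rhox10-ERT2 libraries at 32.8 at the lowest, 43.2 at the median and 52.0 at the highest CPM. Over the induced times the log2 difference was 1.00 (SE 0.09, adjusted p = 6.67e-09) by edgeR, and the 2 sets of libraries did not overlap at any time. Sgce, its divergent neighbour, stood at 2.36 at the lowest, 10.2 at the median and 13.3 at the highest CPM with the empty vector and 12.027 at the lowest, 16.5 at the median and 20.1 at the highest CPM with Rhox10-ERT2. Its difference was 0.74 (SE 0.15, adjusted p = 0.000399) by edgeR, and at 8 h alone it was 0.08 (SE 0.34), where the libraries of the 2 vectors overlapped. Its lowest value came from the second empty-vector library of 0.5 h.

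Phlda2 stood at 45.7 at the lowest, 61.5 at the median and 77.1 at the highest CPM with the empty vector and 83.4 at the lowest, 103 at the median and 123 at the highest CPM with Rhox10-ERT2. Its difference was 0.78 (SE 0.05, adjusted p = 7.6e-11) by edgeR, and no Rhox10-ERT2 library fell below any empty-vector library. Igf2r stood at 81.0 at the lowest, 160.0 at the median and 183 at the highest CPM and 214 at the lowest, 242 at the median and 278 at the highest CPM, again without overlap, with a difference of 0.70 (SE 0.08, adjusted p = 3.48e-07) by edgeR. Both genes were called at each of the 5 induced times, as was Peg10.

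Gnas was the member that fell most. It stood at 14.6 at the lowest, 21.4 at the median and 28.2 at the highest CPM with the empty vector and 10.3 at the lowest, 12.5 at the median and 15.8 at the highest CPM with Rhox10-ERT2. The averaged difference was -0.75 (SE 0.09, adjusted p = 6.61e-07) by edgeR. At each time both Rhox10-ERT2 libraries lay below both empty-vector libraries. Nespas, which overlaps Gnas on the other strand, had 1 to 19 counts in these libraries against at least 110 for Gnas.

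The other 16 members called in the averaged contrast had differences under 0.58 on the log2 scale. Higher with Rhox10-ERT2 were Airn by 0.54 (SE 0.11), Rian by 0.49 (SE 0.14), Impact by 0.47 (SE 0.06), Mirg by 0.44 (SE 0.16), Snrpn by 0.43 (SE 0.14), Meg3 by 0.36 (SE 0.04), Nnat by 0.32 (SE 0.09), H13 by 0.32 (SE 0.05) and Plagl1 by 0.30 (SE 0.05). All 3 tested noncoding RNAs of the Dlk1-Meg3 domain were among them. Lower were Usp29 by -0.50 (SE 0.13), Mest by -0.32 (SE 0.06), Inpp5f by -0.29 (SE 0.05), Mcts2 by -0.27 (SE 0.06), Ndn by -0.18 (SE 0.06), Zdbf2 by -0.16 (SE 0.05) and Kcnq1ot1 by -0.14 (SE 0.03). Of the pair at H13, the host gene was higher and the retrogene Mcts2 in its intron lower. With 1 library left out in turn, the difference was 0.36 to 0.61 for Mirg and -0.21 to -0.14 for Ndn. Some of these fits, which also let more genes pass the filter, did not call the 2 genes.

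The test that bears on induction itself is the change of the vector difference from its value at 0 h. It called 2 members, Meg3 and Rasgrf1, and 2.39% of all genes. The count was higher without either empty-vector library of 0.5 h, and so was the count over all genes. Without both of these libraries it was 5, and 1571 of 20510 genes were called. Meg3 began high with Rhox10-ERT2. At 0 h it stood at 128 and 137 CPM with the empty vector and 231 and 246 CPM with Rhox10-ERT2. At 0.5 h the values were 112 and 149.9 against 224 and 209 CPM. At 1 h they were 188 and 179 against 283 and 266 CPM, and the Rhox10-ERT2 libraries lay above the others at each of these times.

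At 2 h Meg3 stood at 193 and 181 CPM with the empty vector and 281 and 289 CPM with Rhox10-ERT2. At 4 h it stood at 169 and 179 against 177 and 185 CPM, and at 8 h at 179.7 and 193 against 164 and 163 CPM. The Rhox10-ERT2 libraries thus lay above the empty vector through 2 h, overlapped it at 4 h and lay below it at 8 h. The log2 difference went from 0.85 (SE 0.10) at 0 h through 0.61 (SE 0.10) at 2 h and 0.06 (SE 0.10) at 4 h to -0.19 (SE 0.10) at 8 h. The change from 0 h to 8 h was -1.04, and edgeR's test over the 5 times gave an adjusted p of 7.05e-05.

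Airn, Rian and Mirg did not pass that test. The log2 difference of Airn went from 0.75 (SE 0.23) at 0 h and 1.28 (SE 0.23) at 2 h to -0.36 (SE 0.25) at 8 h, with an adjusted p of 0.0782 by edgeR. That of Rian went from 0.78 (SE 0.31) at 0 h through 0.04 (SE 0.31) at 4 h to -0.19 (SE 0.33) at 8 h, with an adjusted p of 0.479 by edgeR. That of Mirg went from 0.69 (SE 0.36) at 0 h through 0.80 (SE 0.35) at 4 h to -0.17 (SE 0.35) at 8 h, with an adjusted p of 0.757 by edgeR. Counts were low in these 3′ end libraries, 33 to 134 for Rian and 21 to 96 for Mirg.

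Rasgrf1 was low and flat at most times and high at 1 time per vector. With the empty vector the libraries of 0 h held 36 and 48 counts, those of 0.5 h 54 and 57, those of 1 h 43 and 39, those of 2 h 52 and 52, those of 4 h 57 and 50 and those of 8 h 192 and 191. With Rhox10-ERT2 the libraries of 0 h held 46 and 57 counts, those of 0.5 h 54 and 41, those of 1 h 53 and 39, those of 2 h 54 and 43, those of 4 h 162 and 151 and those of 8 h 33 and 50. Both libraries of the empty vector at 8 h and both of Rhox10-ERT2 at 4 h held at least 151 counts, and no other library held more than 57.

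In CPM the high Rasgrf1 pairs stood at 18.3 and 19.4 and at 14.4 and 12.7, and the other libraries stood at 3.20 to 5.84. The log2 difference was 1.34 (SE 0.25, adjusted p = 0.000590) at 4 h and -2.18 (SE 0.25, adjusted p = 1.55e-06) at 8 h, each adjusted over all genes at that time by edgeR. The change from 0 h to 8 h was -2.59, with an adjusted p of 1.75e-05 by edgeR over the 5 times. Averaged over the induced times the 2 signs cancelled in part, and the gene was not called, at -0.29 (SE 0.12).

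**Figure D3:**
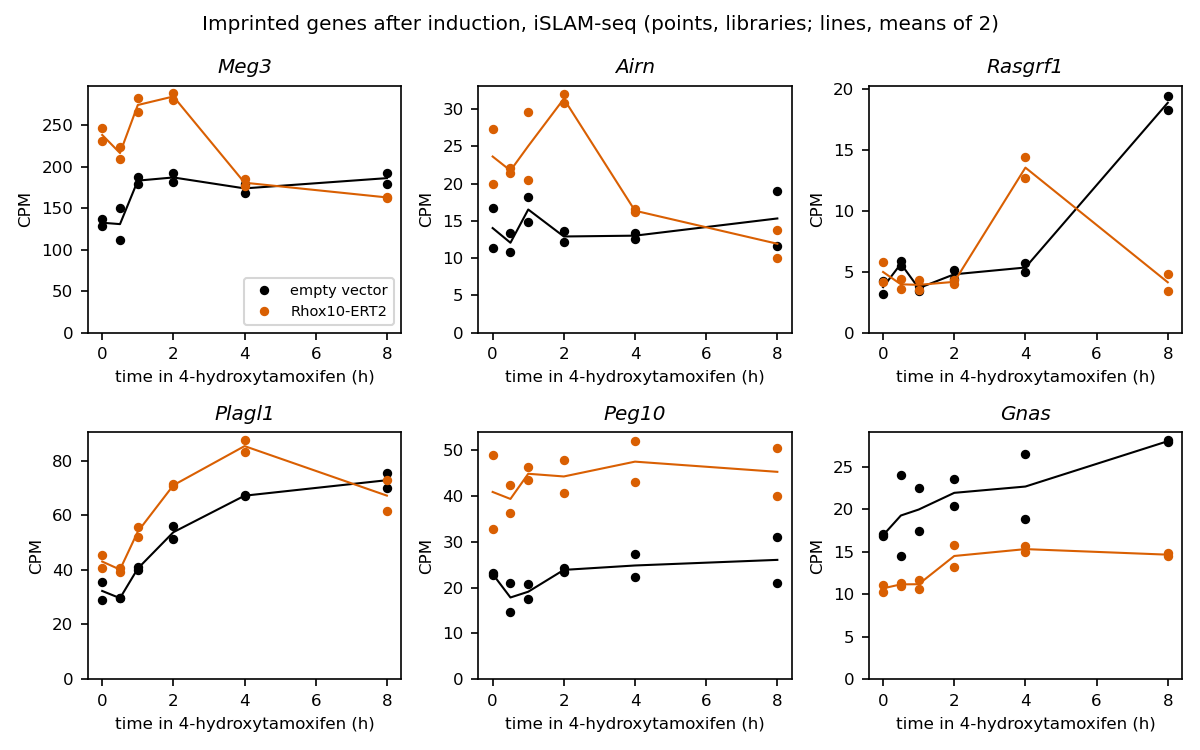
Level of 6 imprinted genes in iSLAM-seq (y axis, CPM) against time in 4-hydroxytamoxifen (x axis, hours). Points are single libraries, lines join the means of 2, black is the empty vector and orange is Rhox10-ERT2. Peg10 and Gnas differ at all times, the Meg3 difference of 0.85 at 0 h is lost by 4 h, and Rasgrf1 is high only at 8 h with the empty vector and at 4 h with Rhox10-ERT2.

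The empty-vector cells changed over the same hours. Among the 31 members, 5 were called in the test over time within that vector, against 5.74% of all genes, and all 5 were higher at 8 h than at 0 h. Rasgrf1 rose by 2.33, Plagl1 by 1.17, Kcnq1ot1 by 0.50, Meg3 by 0.49 and Cdkn1c by 0.30 on the log2 scale. Plagl1 went from 28.9 and 35.6 CPM at 0 h through 51.4 and 56.2 CPM at 2 h to 70.0 and 75.7 CPM at 8 h. With Rhox10-ERT2 it went from 45.4 and 40.8 CPM at 0 h to 87.4 and 83.3 CPM at 4 h and 72.9 and 61.5 CPM at 8 h. Kcnq1ot1 went from 325 and 307 to 448 and 445 CPM with the empty vector and from 289 and 288 to 419 and 418 CPM with Rhox10-ERT2. The rise of both genes was thus seen in each vector. With 1 library left out in turn, the change of Cdkn1c was 0.25 to 0.32. Most of these fits, which also let more genes pass the filter, did not call it. The count itself depended on the empty-vector libraries of 0.5 h. It was higher without either of them, and so was the count over all genes. Without both it was 11, and 2284 of 20510 genes were called.

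The labelled-null cells lack RHOX10 by their label and the Rhox10-ERT2 cells gain it. For the latter, the calls used here are those of the averaged contrast. Of its 21 called members, 20 had the same sign at 0 h, before 4-hydroxytamoxifen was added, and 14 had 1 sign at all induced times. Higher or lower with Rhox10-ERT2 is thus not by itself a change upon induction. The 2 experiments share no library. Of the 28 members tested in both, 14 (50%) were called in both, against 19.2% of the 12562 genes tested in both. Of these, 9 (32.1% of the 28) were higher in both, against 6.18% of all, and Inpp5f was lower in both, as were 7.87% of all. The other 4, Kcnq1ot1, Usp29, Mest and Gnas, were higher in labelled-null cells and lower with Rhox10-ERT2, 14.3% against 3.11% of all. None was lower in labelled-null cells and higher with Rhox10-ERT2. Each experiment alone called 20 of 29 and 21 of 31 members, against 37.5% and 37.1% of all genes. Such shares raise the joint counts without any link between the experiments, and a link was not tested. The genes higher in both were Igf2r, Airn, Meg3, Rian, Mirg, Plagl1, Sgce, Impact and H13. Of the 4 with opposite directions, Kcnq1ot1, Mest and Gnas had a RHOX10 peak that the authors annotated to them within 3 kb. Of the 10 with the same direction, Plagl1, Impact, H13 and Inpp5f had one. By position alone, the peak annotated to Mir1906-1 also lay 970 bases past a Meg3 start. The Peg10 peak also lay at -1971 bases from a Sgce start. Of all genes higher in labelled-null cells and lower with Rhox10-ERT2, 29.2% had an annotated peak within 3 kb. The share was 28.5% of those higher in both and 31.1% of those lower in both. Cdkn1c, Peg3, Zim1, Grb10, Dlk1 and H19 were called in the genotype comparison and not in the averaged contrast, and whether the 2 experiments differ for them was not tested.

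**Figure D4:**
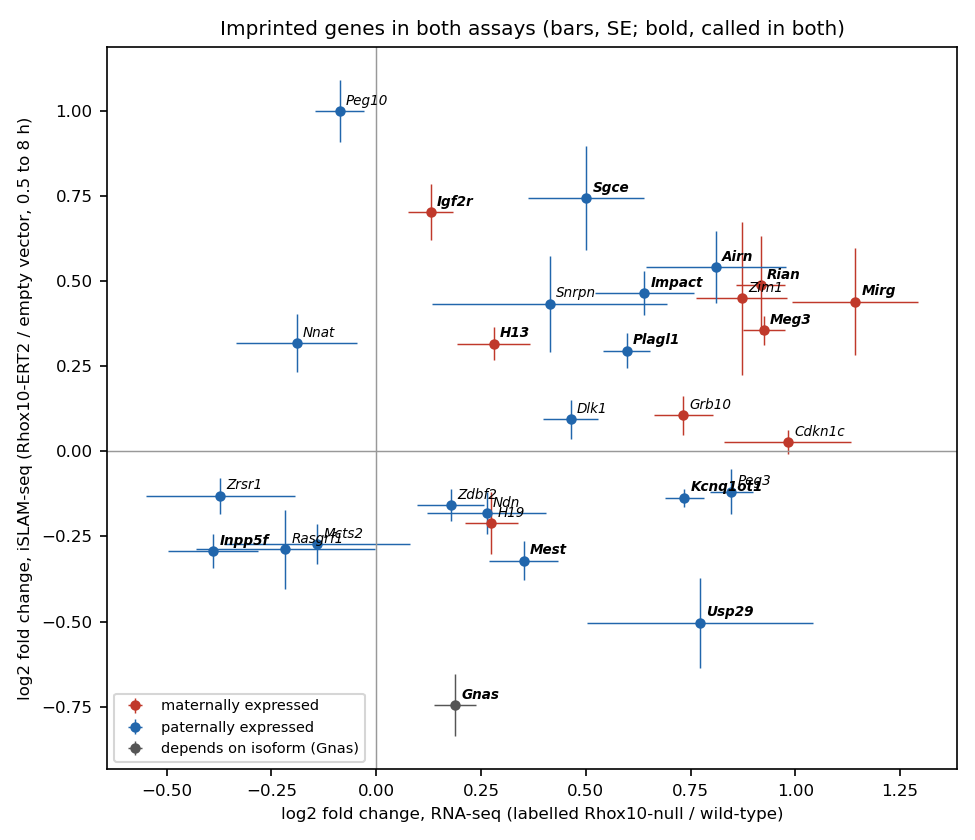
Log2 fold change of 28 imprinted genes in RNA-seq (x axis, labelled null over wild-type) against iSLAM-seq (y axis, Rhox10-ERT2 over empty vector, mean of 0.5 to 8 h), with bars of 1 SE and names in bold where called in both. Kcnq1ot1, Usp29, Mest and Gnas lie in the lower right, and Inpp5f is the bold name in the lower left.

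Factors that write, read or erase imprints were examined as a list of 24. In the genotype comparison 22 could be tested, 10 rose and 5 fell, where 18.6% of all genes rose and 18.9% fell. Those of smallest p included the maintenance methyltransferase gene Dnmt1 at -0.49 (SE 0.05), its hemimethylation reader Uhrf1 at -0.65 (SE 0.06) and the helicase gene Hells at -0.63 (SE 0.06), which fell. The dioxygenase genes Tet2 at 0.55 (SE 0.08) and Tet3 at 0.32 (SE 0.05), which start the removal of methylation, and the histone methyltransferase gene Ehmt2 at 0.36 (SE 0.06) rose. In the averaged iSLAM-seq contrast 23 could be tested, 5 were higher and 8 were lower, where 18.7% and 18.4% of all genes were. Dnmt1 at -0.36 (SE 0.02), Uhrf1 at -0.50 (SE 0.04), Hells at -0.39 (SE 0.06) and Ehmt2 at -0.29 (SE 0.04) were lower with Rhox10-ERT2, and Tet2 at 0.66 (SE 0.09) and Tet3 at 0.27 (SE 0.05) were higher. In the change from 0 h, 2 of the 23 were called, Tet2 and Arid4a, against 2.39% of all genes.

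A further list of 49 imprinted genes outside the 33 gave a mixed picture. In the genotype comparison 26 could be tested, 11 rose and 4 fell, against 18.6% and 18.9% of all genes, with a median log2 fold change of 0.25. Of smallest p were the amino acid transporter gene Slc38a4 at 0.97 (SE 0.14), the noncoding RNA Snhg14 at 1.07 (SE 0.19), Ppp1r9a at 0.24 (SE 0.05) and the ubiquitin ligase gene Ube3a at 0.24 (SE 0.06), which rose, and the Polycomb-related gene Sfmbt2 at -0.58 (SE 0.09) and the creatine synthesis gene Gatm at -0.27 (SE 0.06), which fell. In the averaged iSLAM-seq contrast 40 could be tested, 17 were higher and 6 lower, against 18.7% and 18.4% of all genes, with a median of 0.19. Slc38a4 at -0.31 (SE 0.04) and Gatm at 0.89 (SE 0.19) had the opposite sign there.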

How the data were processed

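Members and lists were chosen with earlier results of these data known. The authors deposited both gene tables as raw counts per library, per the file headers. STAR 2.5.2b, Subread, featureCounts and DESeq2 on GRCm38 are listed for RNA-seq, limma 3.42.2 on mm10 for iSLAM-seq, and Bowtie2 2.2.5, SAMtools and HOMER on mm10 for CUT&Tag, per the submitters' processing notes. The strand setting, whether iSLAM-seq counts cover all or only converted reads, and the background used for peaks are not given in the sources used here. The peak table holds 5147 peaks with scores that the authors deposited, all listing 3 RHOX10 libraries, per the file headers.

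All 55536 identifiers matched GENCODE M21 in start and end. Each comparison was fitted in R 4.3.3 by edgeR 4.0.16's quasi-likelihood method (TMM, filterByExpr, Benjamini-Hochberg over all genes), by genotype in RNA-seq and by 12 means of vector and time in iSLAM-seq. Standard errors are the absolute log2 fold change over the square root of F. Full values are given for members called with a log2 fold change of 0.58 or more in either direction, or in the change from 0 h. On simulated counts the genotype test recovered 200 of 200 genes changed by 1 log2 unit, with 15 false calls among 13419 genes. For the averaged contrast these were 200 with 9 among 18979, and for the change from 0 h 178 with 8 among 18959. The simulation gave all genes the same spread, changed only well-counted genes and placed the change from 0 h at 8 h only. It thus does not cover members with low counts, smaller differences or libraries that stood apart. Alternatives were DESeq2 1.42.0, limma-voom 3.58.1, other scalings and filters, a replicate block and leaving out libraries. Same-numbered libraries did not deviate together (correlations -0.019 to 0.014 in RNA-seq). Sequences came from GRCm38 through pysam 0.24.0 and promoter windows from RefSeq on GRCm38.p6.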

Additional observations from a re-analysis of the deposited data

Results flagged for a closer look

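In the change of the vector difference from 0 h, 2 members differed between times by edgeR, Meg3 with an adjusted p of 7.05e-05 and Rasgrf1 with 1.75e-05. In the wild-type RNA-seq group 1 library stood far from the other 3 for 4 members. The gap over the range was 0.844 for Cdkn1c in replicate 4, at 5.02 CPM against 3.53 to 3.76, and 0.954 for Meg3 in replicate 2, at 55.1 CPM against 58.1 to 58.2. It was 0.905 for Rian in replicate 3, at 39.5 CPM against 44.0 to 44.5, and 0.92 for Gnas in replicate 1, at 72.9 CPM against 80.4 to 81.0. Each is a different library. Among 58 groups of 4 examined, chance alone gives about 2.9 such cases.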

How the results depend on the processing

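The count of 20 members called between genotypes was 17 with DESeq2, 23 with library totals and 29 with scaling to germline genes. Under both of those scalings all calls were higher, where the 20 split into 19 higher and 1 lower. Of all 13538 genes, 7229 and 12114 were called higher under these 2 scalings. Library totals and germline scaling moved the median of all genes by 0.35 and 0.87 on the log2 scale, and Inpp5f reversed to 0.48 under the latter. Leaving out 1 library in turn gave 17 to 21 in the genotype comparison, 2 to 12 at 0 h, 19 to 24 for the averaged contrast, 2 to 11 for the change from 0 h and 4 to 18 for empty-vector cells over time. The lowest counts at 0 h came without 1 library of that time, where the count over all genes was lower too. Without both empty-vector libraries of 0.5 h the change from 0 h gave 5 and the empty-vector cells 11. For the latter, DESeq2 gave 8 and no filter on low counts 9. Members free of antisense exon overlap gave 11 calls of 15 tested between genotypes and 11 of 18 in the averaged contrast, as fewer genes were counted. Over all genes, calls went from 5071 to 2980 with DESeq2, 7858 with library totals and 12187 with germline scaling between genotypes, from 494 to 835 with DESeq2 and 1002 without a filter for the change from 0 h, and from 1184 to 1915 and 2450 for empty-vector cells. Without both empty-vector libraries of 0.5 h they were 3852 at 0 h against 2246, 1571 for the change and 2284 over time. Peaks of at least the median score were found at 5 members (15.2%, against 4.26% of all named genes, most of which are not expressed in these cells). Of the 13 members and 4253 genes with a peak within 3 kb, 5 and 2362 had one of at least that score. The replicate block, whose numbers do not pair the libraries, gave 19, 10, 21, 2 and 5 calls and ended no call other than that of Igf2r between genotypes.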
